A study of Mus musculus with 8 samples.

Results

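The genes described here encode the mouse Fc receptors for immunoglobulin G (IgG) and the chain through which the activating ones signal. The members were the rows of the count table whose Ensembl identifiers carry the names Fcgr1, Fcgr3, Fcgr4, Fcgr2b, Fcer1g and Fcgrt in GENCODE M21, which gave 6 genes of the 49315 in the table, and all 6 were among the 13051 genes with enough counts to be tested. They were measured by RNA-Seq of ribodepleted RNA from bone marrow-derived macrophages (BMDMs), primary macrophages grown from C57BL/6 marrow in the presence of M-CSF (10 ng/ml). Both groups went through lipid transfection with a gapmeR, an antisense oligonucleotide that directs RNase H to cut its target RNA, given in the labels as 25 nM. The 4 control gapmeR libraries (replicates 2, 5, 6 and 7) received a negative control gapmeR and the 4 MAARS gapmeR libraries (replicates 9, 11, 13 and 15) one against MAARS, a macrophage long noncoding RNA, and the comparison asks how its knockdown changed the transcriptome. No immune complex, cytokine or other stimulus beyond the growth factor is named for these libraries, and the labels give neither the age nor the number of mice.

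Fc receptors let a macrophage read the antibody bound to a particle. Activating receptors (Fcgr1, Fcgr3 and Fcgr4) bind IgG outside the cell and pair with the common gamma chain Fcer1g, whose ITAM motif is phosphorylated by Src family kinases and recruits Syk to start phagocytosis and cytokine release. The inhibitory receptor Fcgr2b carries an ITIM motif of its own, which recruits phosphatases such as SHIP-1 and raises the threshold for that signal, so the relative amounts of activating and inhibitory receptors are held to set how readily a macrophage answers immune complexes. Fcgrt, the neonatal Fc receptor, does something else: it pairs with B2m and returns swallowed IgG from endosomes to the surface in place of degrading it.

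The promoters of the activating receptors and of Fcgr2b are shown because, as given below, Fcgr1 and Fcgr4 fell while Fcgr3 and Fcgr2b rose. Another reason is that Fcgr1 is a textbook target of interferon-gamma and of the myeloid factor PU.1. Each window runs from 250 bases before to 50 bases after a RefSeq start on GRCm38.p6, is written 5′ to 3′ on the strand of the gene, and carries in capitals any match to 4 motifs searched on both strands. These were the interferon-gamma activated site (GAS, TTCNNNGAA), a core of the interferon-stimulated response element (ISRE core, GAAANNGAA), a composite of ETS and IRF sites (GGAANNGAA) and a PU.1 box (GAGGAA). Their matches did not overlap one another in these windows, although the ISRE core and the composite share letters and can coincide elsewhere. The minus-strand windows are those of Fcgr1 (chr3:96293920-96294219), Fcgr3 (chr1:171059354-171059653) and Fcgr2b (chr1:170976022-170976321), and that of Fcgr4 (chr1:171018676-171018975) lies on the plus strand.
Fcgr1: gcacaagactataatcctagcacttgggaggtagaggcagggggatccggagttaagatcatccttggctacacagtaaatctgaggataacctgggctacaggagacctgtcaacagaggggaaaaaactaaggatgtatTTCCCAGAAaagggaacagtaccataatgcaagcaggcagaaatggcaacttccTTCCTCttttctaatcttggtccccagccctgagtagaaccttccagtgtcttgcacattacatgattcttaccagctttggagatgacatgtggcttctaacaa
Fcgr4: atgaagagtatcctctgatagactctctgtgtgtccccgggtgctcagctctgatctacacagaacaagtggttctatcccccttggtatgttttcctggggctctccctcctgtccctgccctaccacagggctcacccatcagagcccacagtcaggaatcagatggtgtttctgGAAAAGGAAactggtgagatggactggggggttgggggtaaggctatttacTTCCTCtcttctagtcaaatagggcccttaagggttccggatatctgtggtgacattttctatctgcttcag
Fcgr3: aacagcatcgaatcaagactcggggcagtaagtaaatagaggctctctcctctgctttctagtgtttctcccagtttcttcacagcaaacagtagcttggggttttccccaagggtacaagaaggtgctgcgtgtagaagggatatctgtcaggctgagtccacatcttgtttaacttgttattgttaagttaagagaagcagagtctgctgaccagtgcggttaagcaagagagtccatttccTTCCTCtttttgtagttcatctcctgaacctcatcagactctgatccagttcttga
Fcgr2b: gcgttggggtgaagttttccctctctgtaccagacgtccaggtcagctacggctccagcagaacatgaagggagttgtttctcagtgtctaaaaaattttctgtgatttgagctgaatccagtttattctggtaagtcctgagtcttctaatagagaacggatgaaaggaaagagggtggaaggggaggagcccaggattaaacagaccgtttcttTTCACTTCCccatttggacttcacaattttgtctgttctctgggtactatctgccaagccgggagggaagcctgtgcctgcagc

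The GAS match of Fcgr1 began 109 bases before its start, and a GAS match stood in 9.55% of the promoters of 27025 genes. Fcgr4 held the ISRE core 73 bases before its start, a motif present in 9.76% of genes. Both also held a PU.1 box, 55 bases before the start of Fcgr1 and 22 bases before that of Fcgr4, as did 31.3% of all genes. The Fcgr3 window had a PU.1 box 6 bases before its start and no match to the other 3 motifs, and a second RefSeq start of Fcgr3, 9 bases downstream, shared the same box. In Fcgr2b the ETS-IRF composite (9.42% of genes) began 34 bases before the start. That match and the PU.1 boxes were read on the strand opposite to the gene. The windows of Fcer1g and Fcgrt matched none of the 4 motifs. These matches describe letters in a window and were not tested for binding.

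Library depth lay between 19287279 and 24541205 counts on genes, with every MAARS gapmeR library above every control library, and values are therefore given as library-scaled counts (CPM) after TMM scaling. MAARS, annotated as Gm14461, had counts of 238 to 296 in the control and 135 to 163 in the MAARS gapmeR libraries, so the labels held (log2 fold change -0.95). Of the 13051 genes tested with edgeR's quasi-likelihood test and Benjamini-Hochberg adjustment over all of them, 45.4% passed an adjusted p of 0.05, with 21.3% higher and 24% lower, and 42.1% had no overlap in CPM between the groups. Of the calls 47.0% were higher, or 60.4% when upper-quartile factors replaced TMM. Markers of macrophages were abundant in every library, with summed levels of 12950 to 16378 CPM in the control and 16860 to 20134 CPM in the MAARS gapmeR group, where 6 of 8 were higher and 1 lower. Most of the sum was Lyz2, with means of 9395 CPM in the control and 13157 CPM in the MAARS gapmeR group. Cd68 was the 1 that fell (log2 fold change -0.34), and Adgre1 was not called (0.04, edgeR adjusted p = 0.553). Among B cell markers Pax5 had no more than 1 count in any library, and among T cell markers Cd3g had none. Other markers of these lists were counted. Cd22 had 249 to 353 counts in the control and 149 to 228 in the MAARS gapmeR libraries. Cd4 had 1286 to 1581 counts in the control and 1018 to 1117 in the MAARS gapmeR libraries. The labels do not say whether libraries of a group came from separate mice or cultures, so p-values measure the spread between these libraries. In bulk RNA, fewer cells expressing a gene and less of its RNA per cell cannot be told apart.

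Fcgr1 and Fcgr4 fell with the MAARS gapmeR, Fcgr3 rose moderately, and the inhibitory Fcgr2b and the recycling receptor Fcgrt rose further, while the gamma chain Fcer1g fell. In counts, 3 of the 6 genes were higher against 21.3% of all genes tested and 3 were lower against 24%, and all 6 separated the groups without overlap, as 42.1% of all genes did. Fcgr1 had the 4.26-fold drop that only 0.958% of genes tested exceeded in absolute log2 fold change. For Fcgr4 that share was 2.25%, for Fcgrt 4.74% and for Fcgr2b 6.74%, whereas Fcer1g (24.9%) and Fcgr3 (25.8%) moved no more than many genes.

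**Figure D1:**
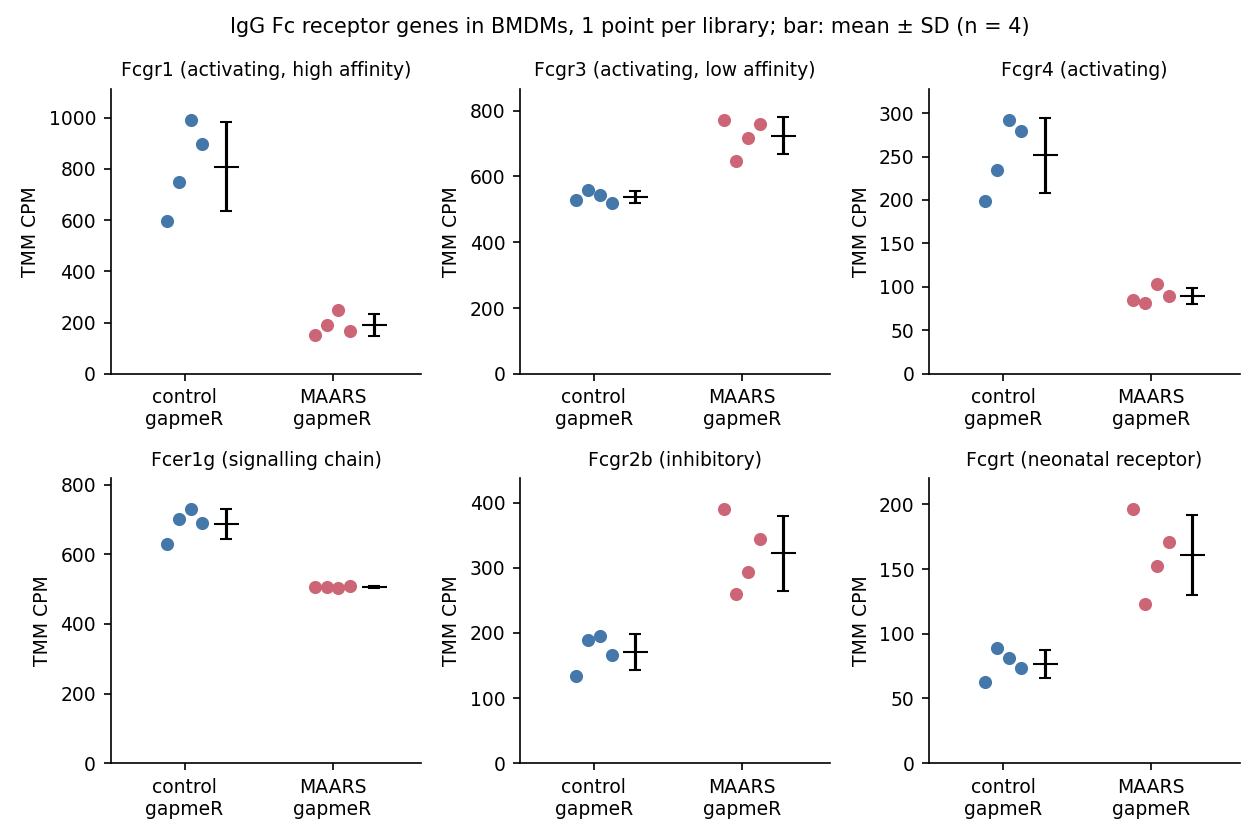
CPM after TMM scaling (y axes, linear from 0) of the 6 genes in the 4 control gapmeR libraries (blue) and the 4 MAARS gapmeR libraries (red), 1 point per library in the order of replicate number, with the group mean ± SD beside them. The groups do not overlap in any panel, and Fcgr1, Fcgr4 and Fcer1g lie lower and Fcgr3, Fcgr2b and Fcgrt higher with the MAARS gapmeR.

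Fcgr1 (ENSMUSG00000015947, chr3:96282909-96293969, minus strand, GRCm38) encodes the high-affinity receptor, which can hold monomeric IgG2a. Its level was 594, 750.3, 992 and 896 CPM in control replicates 2, 5, 6 and 7. With the MAARS gapmeR it was 151, 190.0, 249 and 168 CPM in replicates 9, 11, 13 and 15. The highest treated library stayed well under the lowest control library, although the control libraries themselves were spread, with replicate 2 at the bottom. The means were 808 ± 174 and 189.6 ± 42.7 CPM (SD, n = 4 each), a fall of 76.5% (log2 fold change -2.09, SE 0.174, edgeR quasi-likelihood test, adjusted p = 7.12e-06). Fcgr1 lies on another chromosome than the other Fcγ receptor genes, and none of its transcript stretches of 100 nt, the read length, occurred in another gene.

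Fcgr4 (ENSMUSG00000059089, chr1:171018920-171029761, plus strand) encodes an activating receptor of intermediate affinity for IgG2a and IgG2b. It stood at 199, 235, 293 and 279 CPM in the control libraries. The MAARS gapmeR libraries held 85.0, 81.2, 103 and 89.5 CPM. Control replicates 6 and 7 were again the highest and replicate 2 the lowest, the order seen for Fcgr1 at its ends, and the treated libraries lay close together beneath them. From 251 ± 43.0 to 89.7 ± 9.43 CPM (SD, n = 4 each), the gene was 2.80-fold lower (log2 fold change -1.49, SE 0.115, edgeR adjusted p = 5.45e-06).

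Fcgr3 (ENSMUSG00000059498, chr1:171051174-171064935, minus strand), the low-affinity activating receptor for immune complexes, went the other way. Control libraries had 527, 559.6, 543 and 518 CPM. MAARS gapmeR libraries had 773, 647, 716 and 758 CPM. The control values were nearly level, and each treated library lay above all of them, with replicate 11 the nearest. The rise from 537 ± 18.4 to 723 ± 56.4 CPM (SD, n = 4 each) was 1.35-fold (log2 fold change 0.43, SE 0.0595, edgeR adjusted p = 0.000169). Of its 100-nt stretches 2.54% also occurred in Fcgr2b, where the longest shared run was 129 nt, so a small part of the reads of these neighbours could be assigned to either.

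Fcer1g (ENSMUSG00000058715, chr1:171229572-171234365, minus strand) encodes the common gamma chain, without which the activating receptors are poorly kept at the surface. It was counted at 628, 702, 731 and 689.7 CPM in the control libraries. It was counted at 505, 505, 504 and 510.0 CPM in the MAARS gapmeR libraries. The treated libraries were almost identical and all below control replicate 2. The change from 688 ± 43.3 to 506 ± 2.65 CPM (SD, n = 4 each) was 1.36-fold lower (log2 fold change -0.44, SE 0.0509, edgeR adjusted p = 4.72e-05).

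Fcgr2b (ENSMUSG00000026656, chr1:170958617-170976547, minus strand), the inhibitory receptor, had 134, 189, 195 and 166 CPM in the control libraries. With the MAARS gapmeR it had 391, 259.7, 293 and 344 CPM. Every treated library was above every control library, with replicate 9 the highest and replicate 11 the lowest, the same ends as for Fcgr3. The means rose 1.88-fold, from 171 ± 27.4 to 322 ± 57.5 CPM (SD, n = 4 each; log2 fold change 0.91, SE 0.134, edgeR adjusted p = 0.000257). Fcgr2b was the member with the most shared sequence, since 4.23% of its 100-nt stretches occurred in other genes, Fcgr3 among them, and 2.68% of its exons overlap Gm38204 on the opposite strand. B cells carry Fcgr2b as their Fcγ receptor, and the B cell marker sum was 14.1 to 19.8 CPM in the control and 8.42 to 11.4 CPM in the MAARS gapmeR libraries. That sum was almost wholly Cd22, which fell (log2 fold change -0.86, edgeR adjusted p = 0.00039) and was the only marker called of 2 tested out of 6, and the defining marker Pax5 was at or near 0.

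Fcgrt (ENSMUSG00000003420, chr7:45092990-45103851, minus strand) was the least abundant of the 6 genes in the control libraries in CPM and the one with the greatest rise. Control libraries held 63.0, 88.8, 81.1 and 73.2 CPM. MAARS gapmeR libraries held 197, 123, 153 and 171 CPM. The groups stood apart, and replicates 9 and 11 were once more the highest and the lowest treated libraries. The gene went from 76.5 ± 11.03 to 161 ± 31.1 CPM (SD, n = 4 each), 2.10-fold higher (log2 fold change 1.07, SE 0.136, edgeR adjusted p = 9.13e-05). B2m, the light chain that Fcgrt needs to leave the endoplasmic reticulum and that it shares with MHC class I molecules, fell from 5015 ± 478 to 2547 ± 337 CPM (log2 fold change -0.98, SE 0.0973, edgeR adjusted p = 1.8e-05).

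Levels of different genes can be compared only per length. Per kilobase of merged exons, the control libraries held 312 ± 67.1 CPM of Fcgr1 and 309 ± 10.6 CPM of Fcgr3, a difference well within the spread of Fcgr1, then 158 to 233 of Fcgr4 and 29.6 ± 4.74 of Fcgr2b. With the MAARS gapmeR the order changed: Fcgr3 led at 417 ± 32.5 CPM per kilobase. Fcgr1 at 73.2 ± 16.5, Fcgr4 at 71.4 ± 7.51 and Fcgr2b at 55.6 ± 9.93 followed, with Fcgr1 and Fcgr4 closer together than their spread. Fcer1g was the most abundant of the 6 in both groups, at 787 ± 49.5 and 579 ± 3.04 CPM per kilobase. Fcgrt, at 36.4 ± 5.25, lay just above Fcgr2b in the control group and, at 76.5 ± 14.8, within the spread of Fcgr1 and Fcgr4 in the MAARS gapmeR group. The place of Fcgr2b depends on the length used, since its merged exons span 5790 nt and its coding sequence 1020 nt. Per kilobase of coding sequence it stood at 168 CPM in the control and 316 CPM in the MAARS gapmeR group, where it exceeded Fcgr1 (156 CPM) and Fcgr4 (120.1 CPM).

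The balance of activating to inhibitory receptor fell for each of the 3 activating receptors. Counted per kilobase of merged exons within each library, which needs no scaling between libraries, Fcgr1 exceeded Fcgr2b 9.89, 8.88, 11.4 and 12.04 times in control replicates 2, 5, 6 and 7. The same ratio was 0.865, 1.64, 1.90 and 1.09 in MAARS gapmeR replicates 9, 11, 13 and 15. On this length replicates 9 and 15 were near equal amounts, with more Fcgr2b than Fcgr1 in replicate 9, and replicates 11 and 13 kept more Fcgr1. The difference of log2 ratios was -3.00 (SE 0.279).

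Fcgr4 to Fcgr2b went from 5.73 to 7.73 across the control libraries to 1.00 to 1.62 across the MAARS gapmeR libraries, a 5.22-fold drop (difference of log2 ratios -2.38, SE 0.176). Fcgr3 to Fcgr2b went from 9.29 to 13.1 down to 6.60 to 8.31, a 1.40-fold drop, because Fcgr2b rose by more than Fcgr3 did (difference of log2 ratios -0.48, SE 0.132). None of the 3 ratios overlapped between groups. Each gave p = 0.0286 in an exact two-sided permutation test of 4 against 4 libraries, the smallest that test can give, and 0.0286 after Benjamini-Hochberg adjustment over the 3 ratios. For Fcgr1 and Fcgr4 that outcome was fixed, since each separated the groups in the direction opposite to Fcgr2b. All 3 ratios also share Fcgr2b, so these tests restate the changes of the single genes and add no independent support. The levels of these ratios depend on the length per gene, but their differences between groups do not.

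**Figure D2:**
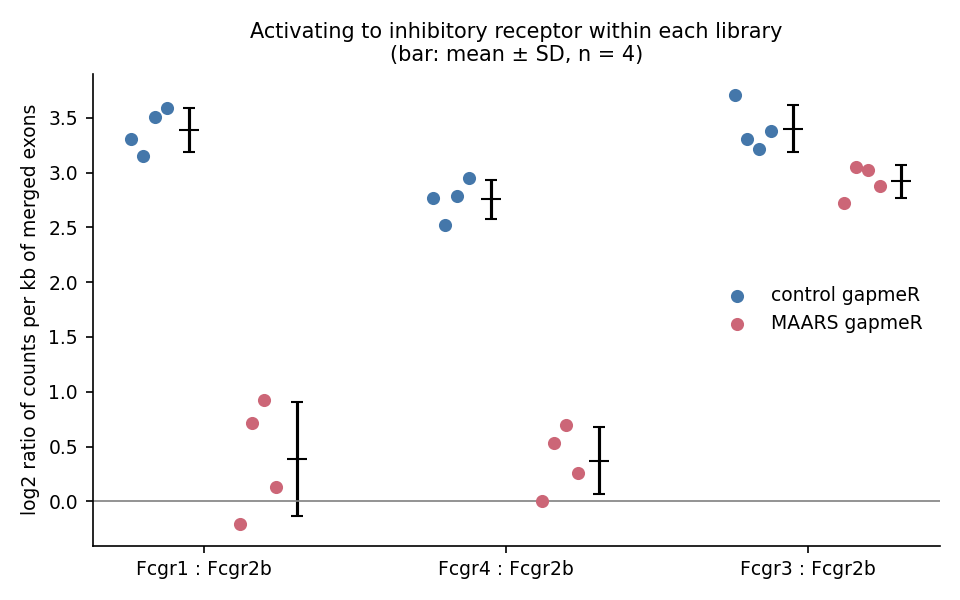
log2 of the within-library ratio of each activating receptor to Fcgr2b, in counts per kilobase of merged exons (y axis), for 4 control gapmeR (blue) and 4 MAARS gapmeR libraries (red), with mean ± SD beside the points and a line at equal amounts. The groups are apart in all 3 ratios, and the MAARS gapmeR libraries lie between -0.21 and 0.92 for Fcgr1, between 0.0048 and 0.69 for Fcgr4 and at 2.72 or more for Fcgr3.

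As a share of the 4 Fcγ receptors per kilobase of merged exons, Fcgr3 grew from 36.8% ± 4.71 to 67.5% ± 2.41 (SD, n = 4 each). Fcgr1 shrank from 36.4% ± 3.52 to 11.9% ± 2.68 and Fcgr4 from 23.4% ± 1.31 to 11.6% ± 0.908. Fcgr2b grew from 3.47% ± 0.327 to 8.99% ± 1.25, or from 9.10% to 21.02% per kilobase of coding sequence. The control libraries therefore divided their activating receptor transcripts among 3 genes, and the MAARS gapmeR libraries carried mainly Fcgr3. The 3 activating receptors together came to 821 ± 102 CPM per kilobase in the control and 561 ± 34.9 in the MAARS gapmeR group. Their sum exceeded Fcgr2b 24.5 to 30.2 times in the control and 8.46 to 11.7 times in the MAARS gapmeR libraries. Per kilobase of coding sequence the excess was smaller, at 8.81 to 10.8 times in the control and 3.14 to 4.30 times in the MAARS gapmeR libraries.

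**Figure D3:**
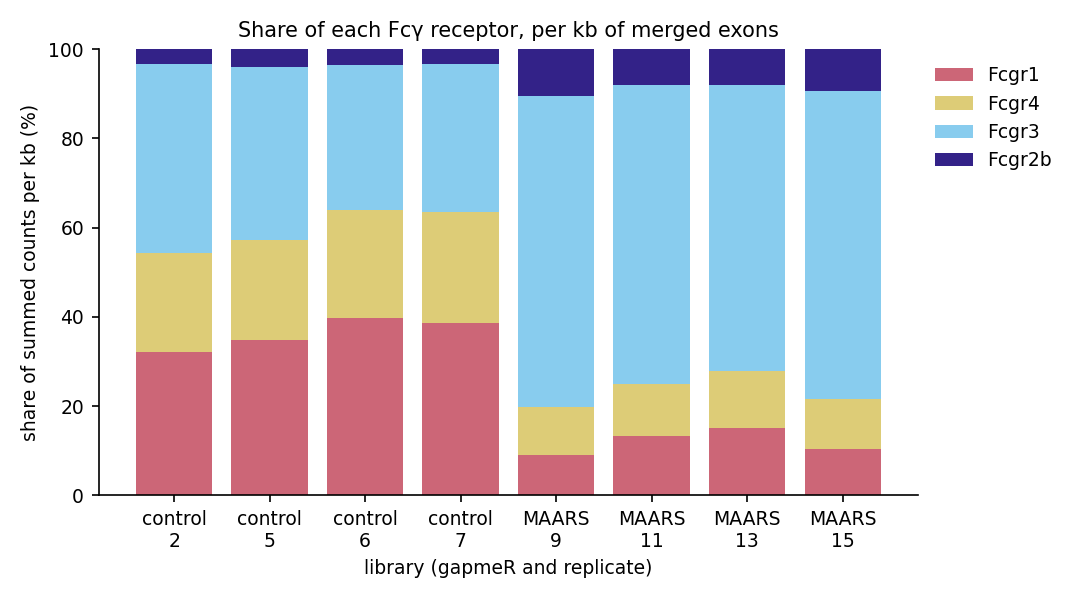
Share of each of the 4 Fcγ receptors (stacked, %, y axis) in their summed counts per kilobase of merged exons, 1 bar per library (x axis). Fcgr3 takes 32.5% to 42.5% of each control bar and 64.3% to 69.7% of each MAARS gapmeR bar.

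Fcer1g fell, as did the per-kilobase sum of the activating receptors it serves, although Fcgr3 among them rose. Its level over the summed activating receptors, per kilobase of merged exons, was 1.04, 1.01, 0.900 and 0.911 in the control libraries. The ratio was 1.01, 1.13, 0.977 and 1.02 in the MAARS gapmeR libraries. The groups overlapped in this ratio, which was given no test.

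Within groups, pairs of these genes varied together to different degrees. Over the 8 libraries after subtraction of the group means, Fcgr1 and Fcgr4 varied together (Pearson r = 0.88), as did Fcgr2b and Fcgrt (r = 0.96), Fcgr3 and Fcgrt (r = 0.91) and Fcgr3 and Fcgr2b (r = 0.81). For Fcer1g, r was 0.74 with Fcgr4 and 0.63 with Fcgr1, which fell as it did. Among pairs that moved in opposite directions r was 0.68 for Fcer1g and Fcgr2b, 0.52 for Fcer1g and Fcgrt, and 0.43 for Fcgr4 and Fcgr2b. It was 0.32 for Fcgr4 and Fcgrt, 0.22 for Fcgr3 and Fcer1g, and 0.11 for Fcgr3 and Fcgr4. Fcgr1 gave 0.05 with Fcgr2b and -0.06 with Fcgrt. The lowest r of any pair was -0.27, for Fcgr1 and Fcgr3. These correlations of log2 CPM describe 8 points that share library, depth and TMM factors and have few degrees of freedom.

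The genes whose log2 CPM followed each Fcγ receptor most closely over the 8 libraries, group difference included, were also listed. For Fcgr1 these were Gbp2 (r = 0.999, log2 fold change -2.70) and Slfn8 (r = 0.999, -1.88), both known as interferon-inducible, and Noc4l (r = 0.999, -0.57), with r of 0.983 to 0.992 once group means were removed. Fcgr4 was followed by the interferon-inducible GTPase gene Gbp5 (r = 0.998, -3.04), the lysosomal protease gene Ctsh (r = 0.998, -0.84) and Trafd1 (r = 0.998, -1.05). Gbp and Slfn genes have close relatives with which they can share reads, and 8.58% of the exons of Trafd1 overlap another gene. Fcgr3 was followed by Fcrls (r = 0.995, 1.02), Cryzl2 (r = 0.992, 0.39) and Sft2d1 (r = 0.991, 0.43), and Fcgr2b by Atg2a (r = 0.997, 0.33), Numbl (r = 0.995, 0.57) and Rnf19a (r = 0.993, 0.31). With group means removed, r was 0.967 to 0.994 for the genes following Fcgr4, 0.923 to 0.957 for Fcgr3 and 0.969 to 0.986 for Fcgr2b. Each of the genes listed passed edgeR's test, as 45.4% of all genes tested did. Choosing them by an r that includes the group difference made this outcome nearly certain. With so few libraries, values of r this high describe likeness only.

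Neighbouring receptor genes on chromosome 1 moved in opposite directions. Fcgr4, which fell, sits between Fcgr2b and Fcgr3, which rose, separated from them by 42372 and 21412 bp and on the opposite strand to both. The 3 genes span 106 kb, and Fcer1g, which fell, closes a span of 276 kb. Within 500 kb of that span 34 other genes were tested, of which 4 were higher (Nos1ap, B4galt3 and Ppox among them), 9 lower and 21 not called, with log2 fold changes from -1.70 to 2.03 and a median of -0.05 against 0.01 over all genes tested. Of all genes tested 21.3% were higher and 24% lower. Nos1ap, at 2.03, was barely detected, with 0.203 CPM in the control and 0.857 CPM in the MAARS gapmeR group, and Ppox (0.33) and B4galt3 (0.26) rose less. The 3 tested neighbours closest to the receptor cluster were Fcrla at 0.60 (SE 0.319, adjusted p = 0.147 with edgeR), Cfap126 at -0.53 (SE 0.138, adjusted p = 0.00831) and Sdhc at -0.04 (SE 0.0381, adjusted p = 0.479). Near Fcer1g lay Apoa2 at -0.16 (SE 0.305, edgeR adjusted p = 0.687) and Tomm40l at -0.15 (SE 0.0769, adjusted p = 0.144). Of the exons of Tomm40l, 64.3% overlap genes on the opposite strand, and the counting's use of strand is not given in the sources used here.

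**Figure D4:**
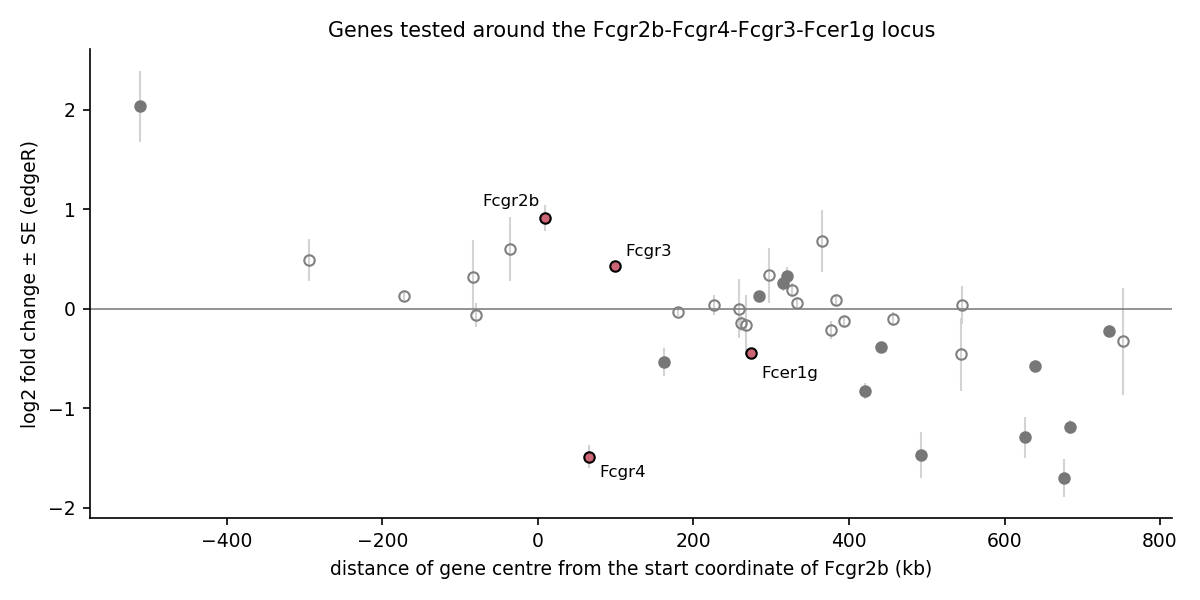
log2 fold change ± SE (edgeR, y axis) of the genes tested around the receptor cluster against the distance of the gene's centre from the start coordinate of Fcgr2b in kb (x axis). Red points are Fcgr2b, Fcgr4, Fcgr3 and Fcer1g, grey filled points other genes with an adjusted p under 0.05 and open points the rest. Fcgr4 at -1.49 lies between Fcgr2b at 0.91 and Fcgr3 at 0.43.

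Genes that act below the activating receptors went both ways. Of 32 listed and tested, 8 were higher (25%) and 9 lower (28.1%), against 21.3% and 24% of all genes, with a median log2 fold change of -0.02. Under upper-quartile factors 10 were higher and 7 lower, with a median of 0.05. Fgr, a Src family kinase that phosphorylates ITAMs in myeloid cells, fell from 8.97 to 2.60 CPM (log2 fold change -1.79, SE 0.188, edgeR adjusted p = 2.46e-05). The adaptor Lat2 (-0.61, SE 0.0497, edgeR adjusted p = 6.49e-06) and the Rac exchange factor Vav1 (-0.57, SE 0.047, edgeR adjusted p = 7.12e-06) fell as well. Syk, the kinase that docks on the gamma chain, rose from 373 ± 21.3 to 529 ± 19.3 CPM (log2 fold change 0.50, SE 0.0518, edgeR adjusted p = 2.17e-05). Thus Fgr and Syk, which act at successive steps of this pathway, differed in direction. Calls among the Src family kinases listed went both ways, and some, including the highest in CPM, were not called, so Fgr does not stand for all of them. Of the exons of Lat2, 36.3% overlap a gene on the opposite strand.

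The list of genes below inhibitory receptors had 6 of 14 tested lower (42.9%, against 24% of all genes) and 1 higher (7.14%, against 21.3%), with a median log2 fold change of -0.11. Ptpn6, the phosphatase SHP-1, 6.96% of whose exons overlap a gene on the opposite strand, fell from 342 ± 14.9 to 234 ± 14.2 CPM (log2 fold change -0.55, SE 0.0541, edgeR adjusted p = 1.68e-05). The adaptor Dok1 (-0.43, SE 0.0663) and the kinase Csk (-0.38, SE 0.0637), which restrains Src family kinases, fell too. The 1 gene that rose was Inpp5d, the SHIP-1 phosphatase recruited by Fcgr2b, from 320.0 ± 8.67 to 357 ± 14.7 CPM (log2 fold change 0.16, SE 0.0452, edgeR adjusted p = 0.0145). Without MAARS gapmeR replicate 13 the list had 2 genes higher.

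Other receptors that signal through Fcer1g, listed with the adaptors Tyrobp, Hcst and Cd247, were lower in 5 of 8 tested (62.5%, against 24% of all genes) and higher in 1 (12.5%, against 21.3%), with a median log2 fold change of -0.25. Clec4e, the receptor Mincle for mycobacterial and self glycolipids, fell from 30.7 ± 5.59 to 12.5 ± 2.24 CPM (log2 fold change -1.30, SE 0.147, edgeR adjusted p = 4.16e-05). Pira2 (-0.85, SE 0.0797) and Lilra6 (-0.90, SE 0.136) fell, and both belong to a family of near-identical receptors whose reads are uncertain. The C-type lectins Clec4d (-0.22) and Clec4n (-0.28) fell, and Hcst, the adaptor DAP10 that carries no ITAM, rose (0.25, edgeR adjusted p = 0.0386). The calls of Hcst and Clec4n were lost when single libraries were left out, with edgeR adjusted p of up to 0.108 and 0.0751. Tyrobp, the sister adaptor DAP12, had 840.1 ± 54.9 and 769 ± 27.5 CPM (log2 fold change -0.13, SE 0.0551, edgeR adjusted p = 0.081). The 5 names of this list not among the genes tested were Oscar, Lilra5, Fcar, Tarm1 and Cd247. Low counts were not told apart here from a name without a gene in the count table.

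Of 16 names listed for other immunoglobulin receptors and binders, only 6 were among the genes tested. Of these, 4 were lower (66.7%, against 24% of all genes) and 1 higher (16.7%, against 21.3%). Trim21, a cytosolic receptor for antibody-coated pathogens, fell from 53.0 ± 4.58 to 28.7 ± 2.47 CPM (log2 fold change -0.89, SE 0.0772, edgeR adjusted p = 8.48e-06), and B2m, given above, Fcrl1 (-0.76) and Lgals3 (-0.28) fell with it. Fcrls, an Fc receptor-like gene typical of tissue macrophages and microglia, rose from 37.6 ± 3.96 to 76.3 ± 13.3 CPM (log2 fold change 1.02, SE 0.118, edgeR adjusted p = 4.79e-05). Fcer1a, the IgE-binding chain that also uses Fcer1g, had no count in any library.

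Among actin and membrane genes of the phagocytic cup 14 of 34 tested were lower (41.2%, against 24% of all genes) and 5 higher (14.7%, against 21.3%), with a median log2 fold change of -0.07. Upper-quartile factors gave 10 lower and 5 higher, with a median of -0.0075. Ncf4, a subunit of the phagosomal NADPH oxidase, fell from 174 ± 7.89 to 114 ± 6.36 CPM (log2 fold change -0.60, SE 0.0523, edgeR adjusted p = 8.42e-06). The GTPase Rac2 (-0.45, SE 0.047, from 421 to 308 CPM) and the WASP partner Wipf1 (-0.36, SE 0.0459) fell as well. The genes that rose were Rac1 (0.32, SE 0.0499), Elmo1 (0.33, SE 0.0808), Dock2 (0.31, SE 0.0528), Crkl (0.27, SE 0.0444) and Pld2 (0.24, SE 0.0536). Rac1 and Rac2, close relatives that both drive actin at the cup, thus differed in direction, and 51.4% of the exons of Rac1 overlap a gene on the opposite strand.

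**Figure D5:**
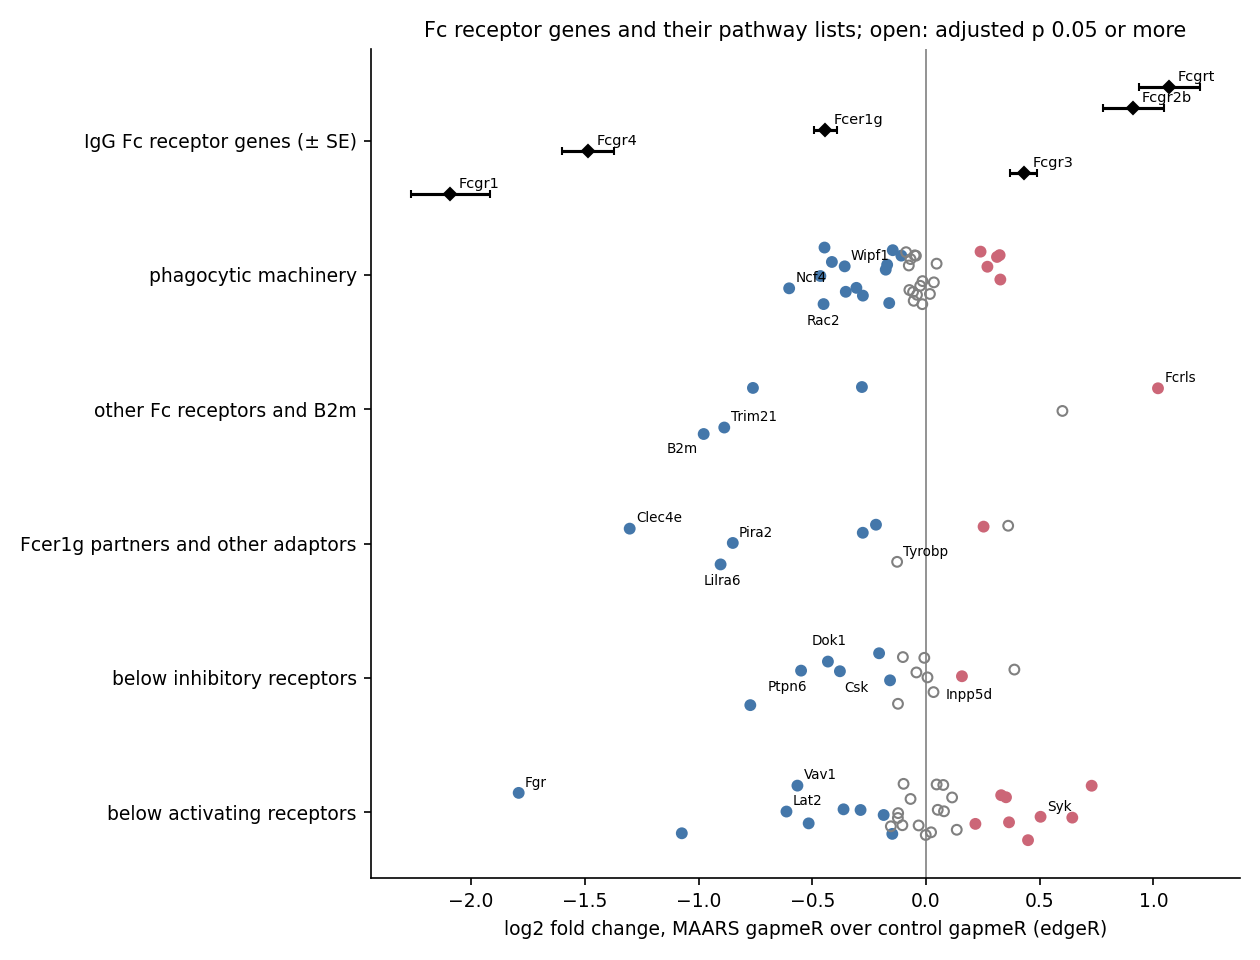
edgeR log2 fold change of MAARS gapmeR over control gapmeR (x axis) for the 6 Fc receptor genes (diamonds, ± SE) and for each tested gene of 5 lists (circles, 1 row a list, vertical scatter arbitrary). Filled circles have an adjusted p under 0.05, red above and blue below 0, open circles the rest, and labels mark genes named in the text.

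Neutrophils carry Fcgr3 and Fcgr4, and their markers summed to 84.8 to 245 CPM in the control and 88.9 to 141 CPM in the MAARS gapmeR libraries. The ranges overlapped, and none of the 6 neutrophil markers tested was called, although all 6 had negative log2 fold changes, from -0.71 for Mpo to -0.28 for Camp. Most of the sum came from S100a9, Ngp and S100a8, with means of 55.7, 54.8 and 28.7 CPM in the control group. Their means were 43.4, 40.3 and 23.2 CPM in the MAARS gapmeR group. Ly6g had at most 8 counts. The high value came from control replicate 7. Whether neutrophil content bears on the levels of Fcgr3 and Fcgr4 was not tested. Markers of NK cells, mast cells and dendritic cells summed to under 3 CPM in every library. The T cell markers summed to 65.9 to 85.4 CPM in the control and 40.6 to 51.3 CPM in the MAARS gapmeR libraries, nearly all of it Cd4, which fell (log2 fold change -0.68, edgeR adjusted p = 0.000126).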

How the data were processed

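RNA-Seq of BMDMs transfected with a control or a MAARS gapmeR was used, with groups from the labels. The authors trimmed reads with Trimmomatic 0.36, aligned them with STAR 2.5.2b to GRCm38 and counted them per gene with featureCounts of Subread 1.5.2, per the labels and the submitters' processing notes. The deposited values are raw counts, not normalized. Strand use and the handling of reads with several locations are not given in the sources used here. Totals of 19287279 to 24541205 counts a library limit the precision.

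After filterByExpr (count 10, total 15 at the least), libraries were scaled with TMM factors and compared with edgeR 4.0.16 (glmQLFit, glmQLFTest) in R 4.3.3, with Benjamini-Hochberg adjustment over all 13051 genes. SE was the absolute log2 fold change over the square root of F. Lengths, positions, overlaps and shared 100-nt stretches came from GENCODE M21, where 99.47% of the identifiers were found. Promoters came from RefSeq. All 6 members matched it. Ratios were compared by exact permutation tests with SciPy 1.17.1. No 2 libraries of a group were alike within counting noise (chi-square 4.07 to 14.3 per gene). The procedure was tested on simulated data.

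Alternatives were RLE and upper-quartile factors, DESeq2 1.42.0, limma-voom (limma 3.58.1), a filter at a mean of 10 counts, no filter, a robust prior, leaving out each library, and for the ratios coding length in place of merged exons and CPM with a pseudocount of 1. Recounting the lists under these was added after seeing the data.

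The members and lists were chosen with earlier results of these data known. Named genes were the members, Syk, Inpp5d, B2m and Tyrobp, the 3 of each list that ranked first by p and any list gene past an absolute log2 fold change of 1, the 3 nearest tested neighbours, and the 3 genes most like each Fcγ receptor. Marker genes, the called genes of lists and neighbours with counts of 5 or fewer (Clec4d, Clec4n, Hcst, Fcrl1, Lgals3, Rac1, Elmo1, Dock2, Crkl, Pld2, Nos1ap, B4galt3 and Ppox), and genes listed as untested were named after their values were seen. Some genes that this rule picks are not reported here.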

Additional observations from a re-analysis of the deposited data

Results flagged for a closer look

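Among 118 groups of 4 libraries examined over 56 named genes and the 3 ratios, 2 held a library far from the other 3 by Dixon's criterion, where chance flags about 1 in 20 groups. Gbp5, the gene most like Fcgr4, had 11.2 CPM in MAARS gapmeR replicate 13 and 6.76 to 7.003 CPM in the other MAARS gapmeR libraries, a gap of 0.946 of the group's range. B4galt3, a neighbour of Fcer1g, had 11.7 CPM in control replicate 7 and 11.005 to 11.06 CPM in the other control libraries, a gap of 0.920. No member and no ratio of activating to inhibitory receptor was flagged.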

How the results depend on the processing

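All 6 members kept their direction and their call under the 15 alternatives run for each: log2 fold changes ranged from -2.25 to -1.98 for Fcgr1, -1.58 to -1.41 for Fcgr4, 0.39 to 0.49 for Fcgr3, -0.48 to -0.38 for Fcer1g, 0.80 to 1.00 for Fcgr2b and 0.95 to 1.18 for Fcgrt, and the largest adjusted p was 0.00304, for Fcgr2b. Leaving out each library gave differences of log2 ratios to Fcgr2b of -3.18 to -2.80 for Fcgr1, -0.54 to -0.38 for Fcgr3 and -2.49 to -2.26 for Fcgr4, but 4 against 3 libraries cannot go below an exact permutation p of 0.0571. Upper-quartile factors, which moved the median of all genes by 0.0627 on the log2 scale, raised the share of calls that were higher from 47.0% to 60.4% and gave 10 higher and 7 lower genes below activating receptors in place of 8 and 9; Sdhc then stood at 0.0277. Without control replicate 5 Apoa2, measured at 0.662 CPM in the control group, stood at 0.0235, the highest of its values with 1 library left out (lowest -0.32). Hcst lost its call in 8 of 15 alternatives (DESeq2, no filter, and without control replicate 5, 6 or 7 or MAARS gapmeR replicate 9, 11 or 15, edgeR adjusted p up to 0.108), Clec4n in 4 (upper-quartile factors, and without control replicate 5 or 6 or MAARS gapmeR replicate 13, up to 0.0751) and B4galt3 in 1 (no filter, 0.0509), and Tyrobp gained one without control replicate 7 (edgeR adjusted p = 0.0465); the cause was not tested. No paired analysis was possible because the groups share no replicate number. The lowest count of any member in a library was 1231, and genes such as Nos1ap and Apoa2, at under 1 CPM, are limited by depth.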
